A study of Mus musculus with 6 samples.

Results

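The genes of fatty acid synthesis and desaturation were examined in cultured mouse bone marrow stromal cells (BMSCs) labelled as wild type or as knockout for HRP2. The set held 10 genes, chosen by name from the 18853 genes of the deposited expression table. They were Acly, Acaca, Fasn, Scd1, Scd2, Elovl5, Elovl6, Fads1, Fads2 and the regulator Srebf1. All 10 were found in the table, and all 10 were among the 13696 genes with enough counts to be tested.

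Total RNA of BMSCs, plastic-adherent cells from marrow with the capacity to make bone and fat, was sequenced. HRP2-KO cells (replicates 6, 7 and 44) are labelled as knockout for HRP2, a chromatin protein of the HDGF family whose gene is listed as Hdgfl2. WT cells (replicates 10, 11 and 12) are labelled wild type, and the medium of both groups was αMEM with 10% FBS. The sources used here give neither the age, sex or strain of the mice nor how the gene was disrupted. They also do not say whether the 3 samples of a group came from separate animals, so the p-values reflect only how these samples spread, which may be technical.

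Fatty acids are built in the cytosol from acetyl-CoA, which ATP citrate lyase makes from citrate and acetyl-CoA carboxylase turns into malonyl-CoA. Fatty acid synthase joins these units into palmitate, elongases lengthen the chain, and desaturases place double bonds in it. In many tissues the transcription factor SREBP-1, the product of Srebf1, drives most of these genes, and its relative SREBP-2 mainly drives cholesterol synthesis. Marrow stromal cells can turn into fat cells, in which this pathway is highly active.

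Promoter sequences of the 3 genes whose data are described most closely are given first. Fads2 had the largest fitted change, Fasn is the central enzyme, and Elovl5 had the smallest spread among HRP2-KO libraries. Each covers 250 bases before to 50 after a RefSeq gene start in GRCm38.p6, written 5′ to 3′ on the strand of the gene. Capitals mark matches on either strand to the NF-Y box CCAAT, the Sp1 box GGGCGG or the E-box CACGTG. Fads2 lies at chr19:10101454-10101753 on the minus strand, Fasn at chr11:120824498-120824797 on the minus strand, and Elovl5 at chr9:77917115-77917414 on the plus strand.
Fads2: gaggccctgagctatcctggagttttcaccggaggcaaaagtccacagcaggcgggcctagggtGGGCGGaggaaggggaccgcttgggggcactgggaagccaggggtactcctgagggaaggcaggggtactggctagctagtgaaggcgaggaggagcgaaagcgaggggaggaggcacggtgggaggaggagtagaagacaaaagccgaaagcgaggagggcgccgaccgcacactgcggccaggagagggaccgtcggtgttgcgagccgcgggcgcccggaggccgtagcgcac
Fasn: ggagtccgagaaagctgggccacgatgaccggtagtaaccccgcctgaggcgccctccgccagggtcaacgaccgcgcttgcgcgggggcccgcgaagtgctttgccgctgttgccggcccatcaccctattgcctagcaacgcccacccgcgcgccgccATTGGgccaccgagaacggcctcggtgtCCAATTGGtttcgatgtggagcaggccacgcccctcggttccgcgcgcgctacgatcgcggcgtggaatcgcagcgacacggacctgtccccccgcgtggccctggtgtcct
Elovl5: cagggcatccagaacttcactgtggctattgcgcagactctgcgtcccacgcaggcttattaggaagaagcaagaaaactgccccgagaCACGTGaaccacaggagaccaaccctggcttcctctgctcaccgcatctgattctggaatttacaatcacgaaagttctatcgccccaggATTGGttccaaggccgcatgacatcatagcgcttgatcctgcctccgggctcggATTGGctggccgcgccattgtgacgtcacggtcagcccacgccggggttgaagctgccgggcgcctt

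The Fads2 window held 1 Sp1 box and no NF-Y box or E-box. Fasn held 3 NF-Y boxes, 2 of them overlapping in the run CCAATTGG, and Elovl5 held 2 NF-Y boxes and 1 E-box. RefSeq promoter windows were found for 7 of the 10 genes, 9 windows in all because Srebf1 has 3 starts. Across these 9 windows 5 held an NF-Y box, 4 an Sp1 box and 1 an E-box, against 37.4%, 35.7% and 7.15% of all 32851 windows of the same length. Among windows of tested genes the Sp1 box was in 60.2%, the NF-Y box in 37.8% and the E-box in 9.53%. The sterol regulatory element motif TCACNCCAC was in 0 of the 9 windows and in 1.24% of all windows. A match is a description of letters and not of binding, and no match says only that these letters are not in the window. The Acaca window, at chromosome 11, 84195188 to 84195487, lies inside the annotated gene and so describes 1 of its starts.

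Libraries held between 20184500 and 20680800 estimated counts, and levels are given as CPM, counts scaled to library size with TMM factors, edgeR's library normalization. Hdgfl2, the targeted gene, was at 6.59, 5.56 and 11.8 CPM in the HRP2-KO libraries (replicates 6, 7 and 44), against 51.4, 56.2 and 58.2 CPM in WT replicates 10, 11 and 12, with an adjusted p of 0.0711 in edgeR and 2.92e-10 in DESeq2. HRP2-KO replicate 7 stood apart. Its 15 macrophage markers summed to 15600 CPM, against 1360 and 2720 CPM in HRP2-KO replicates 6 and 44 and 28600, 11800 and 10900 CPM in WT replicates 10, 11 and 12. Its 7 interferon-response genes summed to 1100 CPM, against 87.9 and 94.7 CPM in the other HRP2-KO libraries and 165 to 229 CPM in WT. In HRP2-KO replicate 44 long transcripts were low, with a median log2 deviation of -0.50 in the longest 2739 genes and 0.53 in the shortest 2740. In bulk samples such as these, fewer cells of a type and less RNA per cell cannot be told apart. The labels name no batch.

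On the CPM scale each of the 9 enzyme genes stood higher in HRP2-KO replicates 6 and 44 than in any WT library, against 29.8% of tested genes. On the TPM scale, where values are scaled to transcript length and a common total, this held for 4 of the 10 genes (Fasn, Scd2, Elovl6 and Fads2), against 19.8%. HRP2-KO replicate 7 exceeded every WT value in CPM in 4 genes, against 33.0% of tested genes, lay within the WT range in 5 and below it in 1, against 29.8%. On the TPM scale replicate 7 lay above every WT value in 3 genes, against 19.1%, and below in 3, against 45.0%. With all 6 libraries the fitted log2 fold changes ran from 0.01 to 1.70 with a median of 0.50, against a median of 0.02 over all tested genes, 51.0% of which lay above 0. None of the 10 passed edgeR's quasi-likelihood test at an adjusted p of 0.05 over all genes, where 1 of 13696 genes was called (0.0073%). At an unadjusted p under 0.05 there were 6 of the 10, all higher in HRP2-KO, where 12.7% of all tested genes were higher, 9.1% lower and 21.8% either way by that rule. Without HRP2-KO replicate 7 the test called 5 of the 10, all higher, against 12.1% of 13983 genes called higher and 24.1% called either way. The HRP2-KO libraries kept in that fit had macrophage sums of 1360 and 2720 CPM, against 10900 to 28600 CPM in WT. Genotype and macrophage content cannot be told apart in it. With any other library left out the test called 0 of the 10 and at most 1 gene in the whole table. Without HRP2-KO replicate 44 it called 0 of the 10 and 0 of 13965 genes. None of the 10 was called by limma voom, which called 0.0511% of genes higher and 0.219% lower, or by limma on log2(TPM + 1), which called 0.0474% higher and 0.284% lower. On the TPM scale the median of all genes shifted by -0.22.

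**Figure D1:**
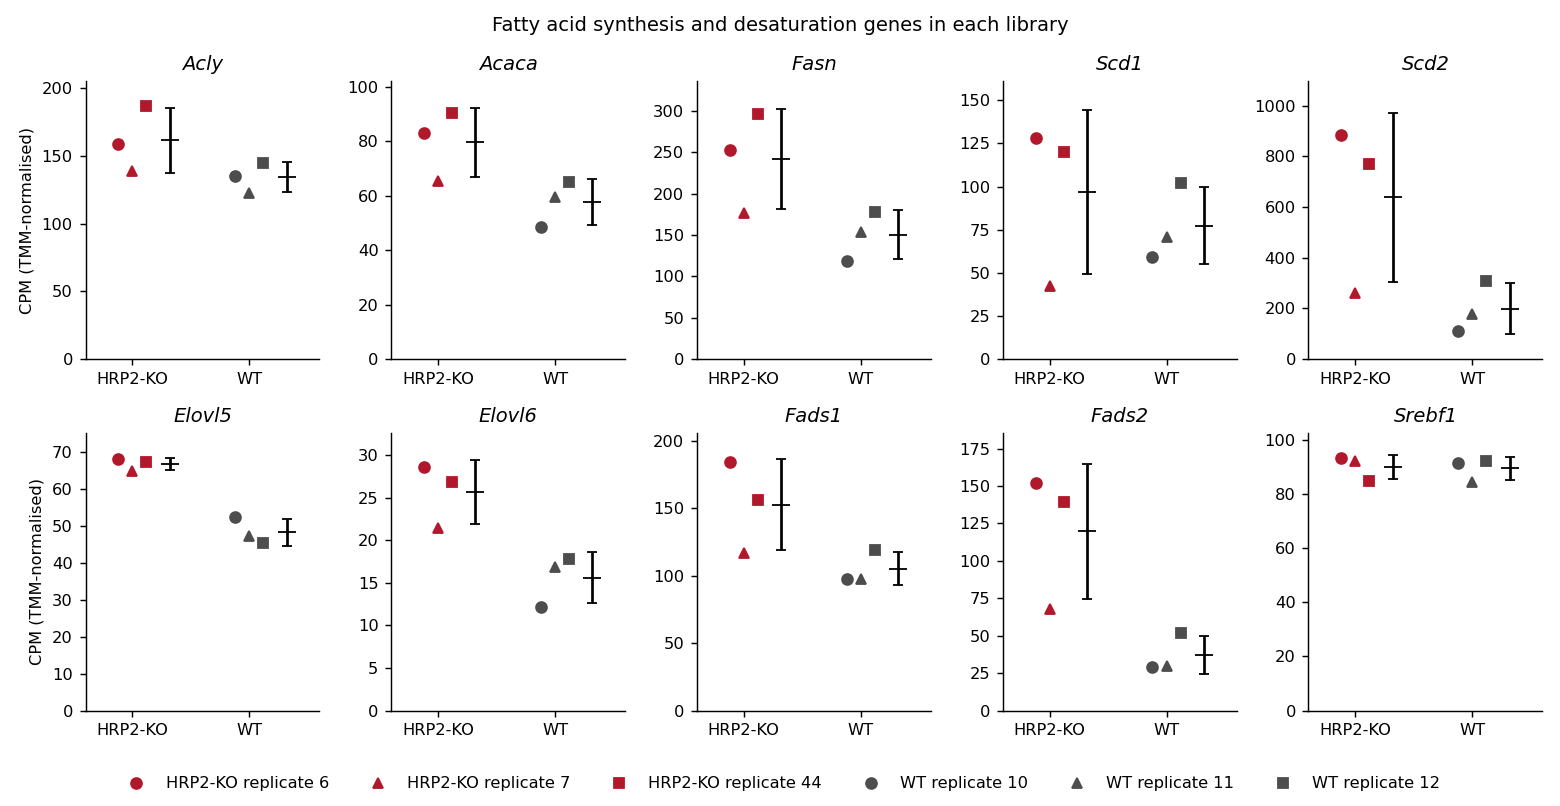
TMM-normalised CPM of each gene (vertical axis, from 0) in the 3 HRP2-KO libraries (red) and the 3 WT libraries (grey), with symbols for replicates and a black bar for mean ± SD. HRP2-KO replicate 7 (red triangle) is the lowest HRP2-KO library in 9 of 10 genes, and WT replicate 10 is the lowest WT library in 7.

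The suppliers of carbon units had fitted folds under 1.4 and did not pass the test. Acly, which encodes ATP citrate lyase (Entrez 104112, chromosome 11, 100476352 to 100528000), was at 159, 139 and 187 CPM in the HRP2-KO libraries (replicates 6, 7 and 44), against 135, 123 and 145 CPM in WT replicates 10, 11 and 12. The groups overlapped through replicate 7, and the log2 fold change was 0.27 with a standard error of 0.19 (edgeR adjusted p = 0.413). Acaca, acetyl-CoA carboxylase 1 (Entrez 107476, chromosome 11, 84129635 to 84401651), was at 83.3, 65.6 and 90.3 CPM in HRP2-KO libraries, against 48.5, 59.6 and 65.2 CPM in WT libraries. These groups did not overlap, but only just, since HRP2-KO replicate 7 and WT replicate 12 were nearly level. The fitted fold was 1.38 (log2 fold change 0.46, standard error 0.20, edgeR adjusted p = 0.241). Of the 50-base words in Acaca transcripts, 29.2% also occur in the processed pseudogene Gm5182, so its counts are uncertain to that extent.

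Fasn, fatty acid synthase (Entrez 14104, chromosome 11, 120805958 to 120825166), was at 253, 177 and 296 CPM in the HRP2-KO libraries (replicates 6, 7 and 44), against 119, 154 and 178 CPM in WT replicates 10, 11 and 12. Replicate 7 again fell inside the WT range, level with WT replicate 12. Group means were 242 ± 60.2 CPM in HRP2-KO and 151 ± 29.7 CPM in WT (SD, n = 3 each), a fitted fold of 1.6 that did not pass in edgeR (adjusted p = 0.212). Without HRP2-KO replicate 7 the fitted fold was 1.87 (edgeR adjusted p = 0.0423). With any other library left out the edgeR adjusted p for Fasn was 0.343 to 0.454.

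The stearoyl-CoA desaturases, which put the first double bond into saturated chains, varied most of the 10 genes between HRP2-KO libraries. Scd2, the form that dominates outside liver and fat in mice (Entrez 20250, chromosome 19, 44293676 to 44306864), was at 886, 260 and 772 CPM in HRP2-KO libraries, against 111, 176 and 310 CPM in WT libraries. The range within HRP2-KO was 3.41-fold and within WT 2.78-fold, and replicate 7 lay below WT replicate 12. Means were 639 ± 334 CPM in HRP2-KO and 199 ± 101 CPM in WT (SD, n = 3 each), a fitted fold of 3.21 (log2 fold change 1.68, standard error 0.57, edgeR adjusted p = 0.183). Without replicate 7 the fitted fold for Scd2 was 4.27 (edgeR adjusted p = 0.0262).

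Scd1, the neighbouring form that is abundant in liver and fat (Entrez 20249, chromosome 19, 44394450 to 44407709), was at 128, 42.3 and 120 CPM in the HRP2-KO libraries (replicates 6, 7 and 44), against 59.0, 70.5 and 102 CPM in WT replicates 10, 11 and 12. HRP2-KO replicate 7 was the lowest of all 6 libraries and the other 2 HRP2-KO libraries the highest. Its log2 fold change was 0.33 with a standard error of 0.45 (edgeR adjusted p = 0.669), and 0.72 without replicate 7 (edgeR adjusted p = 0.0913). On the log2(TPM + 1) scale the log2 fold change was -0.04, where the median of all genes was -0.21. Less that median Scd1 was at 0.17. Of its 50-base words 4.56% occur in other genes, most of them in Scd3, and for Scd2 the share was 3.97%.

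Both elongases separated the genotypes in every library on the CPM scale. Elovl5, which lengthens polyunsaturated chains (Entrez 68801, chromosome 9, 77917365 to 77984519), was at 68.0, 64.7 and 67.3 CPM in HRP2-KO libraries, against 52.3, 47.1 and 45.3 CPM in WT libraries. The spread was small, with means of 66.7 ± 1.75 CPM in HRP2-KO and 48.2 ± 3.65 CPM in WT (SD, n = 3 each). The fitted fold of 1.38 had a log2 standard error of 0.14 and did not pass in edgeR (adjusted p = 0.162). On the TPM scale the Elovl5 groups overlapped, at 52.1, 45.4 and 39.0 TPM in HRP2-KO replicates 6, 7 and 44 and 39.7, 40.0 and 36.5 TPM in WT replicates 10, 11 and 12.

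Elovl6, which lengthens palmitate to stearate (Entrez 170439, chromosome 3, 129532386 to 129638495), was at 28.6, 21.4 and 26.9 CPM in the HRP2-KO libraries (replicates 6, 7 and 44), against 12.2, 16.9 and 17.8 CPM in WT replicates 10, 11 and 12. Every HRP2-KO library was above every WT library, on the CPM and on the TPM scale. The fitted fold was 1.64 (edgeR adjusted p = 0.169), and without replicate 7 it was 1.82 (edgeR adjusted p = 0.0456). Groups with every HRP2-KO value above every WT value were found in 4 of the 10 genes on the CPM scale (Acaca, Elovl5, Elovl6 and Fads2), against 17.0% of tested genes. On the TPM scale they were found in 2 (Elovl6 and Fads2), against 7.41%.

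The front-end desaturases, which make polyunsaturated fatty acids, are neighbours on chromosome 19. Fads2, delta-6 desaturase (Entrez 56473, chromosome 19, 10062765 to 10101503), was at 152, 67.9 and 139 CPM in HRP2-KO libraries, against 29.4, 29.8 and 51.7 CPM in WT libraries. All HRP2-KO values lay above all WT values, and replicate 7 was nearest to WT. Means were 120 ± 45.5 CPM in HRP2-KO and 36.9 ± 12.8 CPM in WT (SD, n = 3 each), a fitted fold of 3.24 or 1.70 on the log2 scale (standard error 0.39). It had the smallest p of the 10 genes and did not pass over all genes in edgeR (unadjusted p = 0.00414, adjusted p = 0.111). DESeq2 called it higher (adjusted p = 0.00325) along with Scd2 (adjusted p = 0.041), 2 of the 10 genes against 5.45% of 15422 genes called higher, 4.62% lower and 10.1% either way by that tool. Without replicate 7 the fitted fold for Fads2 was 4.06 (edgeR adjusted p = 0.0169).

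Fads1, delta-5 desaturase (Entrez 76267, chromosome 19, 10182877 to 10196874), was at 184, 117 and 156 CPM in the HRP2-KO libraries (replicates 6, 7 and 44), against 97.8, 97.8 and 119 CPM in WT replicates 10, 11 and 12. Replicate 7 was just under WT replicate 12, so the groups overlapped. The fitted fold was 1.45 (edgeR adjusted p = 0.229), and without replicate 7 it was 1.67 (edgeR adjusted p = 0.0388).

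Srebf1, the transcription factor gene of the pathway (Entrez 20787, chromosome 11, 60199084 to 60224186), varied little between libraries. It was at 93.3, 92.3 and 85.0 CPM in HRP2-KO libraries, against 91.6, 84.6 and 92.5 CPM in WT libraries. Means were 90.2 ± 4.56 CPM in HRP2-KO and 89.6 ± 4.35 CPM in WT (SD, n = 3 each), a log2 fold change of 0.01 (standard error 0.15, edgeR adjusted p = 0.972). The fitted value was 0.03 without HRP2-KO replicate 7, and -0.23 on the log2(TPM + 1) scale, where the median of all genes was -0.21. Gene counts do not separate its 3 annotated starts, and SREBP-1 activity, which depends on cleavage of the protein, was not measured. Of its exon bases 1.93% overlap Rai1 on the opposite strand.

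**Figure D2:**
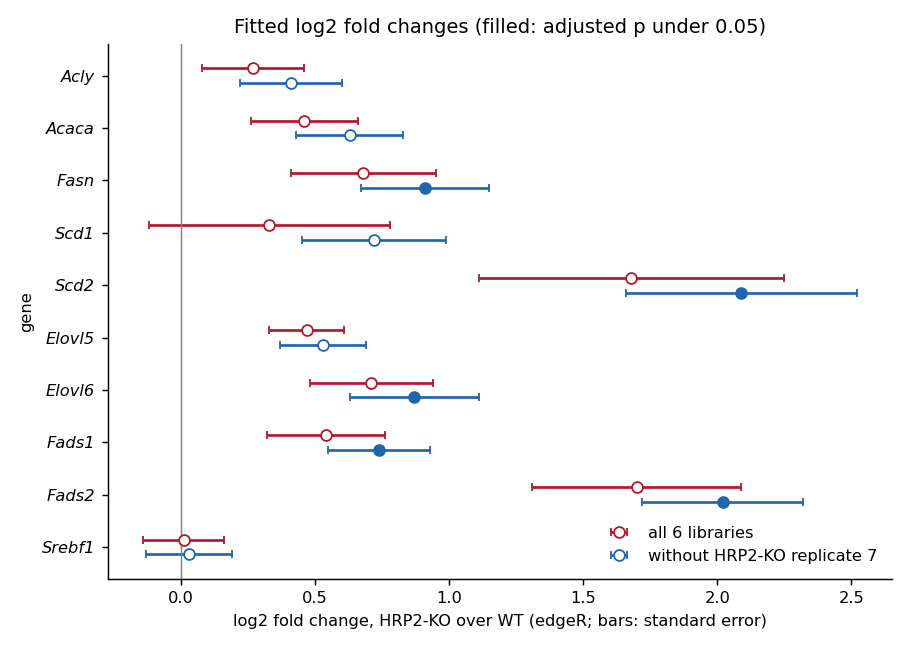
Fitted log2 fold change of HRP2-KO over WT for each gene (horizontal axis, bars show the standard error) from all 6 libraries (red) and without HRP2-KO replicate 7 (blue), with filled points for an adjusted p under 0.05. With all libraries no point is filled, and without replicate 7 Fasn, Scd2, Elovl6, Fads1 and Fads2 are.

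Levels of different genes were compared per length, in TPM. Scd2 had the highest mean, 219 ± 125 TPM in HRP2-KO and 81.5 ± 42.2 TPM in WT (SD, n = 3 each), although its lead over the next genes in WT was within the spread. In HRP2-KO it was followed by Fads1 at 83.3 ± 25.5 TPM, Fads2 at 77.6 ± 32.8 TPM and Acly at 68.1 ± 7.35 TPM, which did not differ beyond their spread. In WT, Acly and Fads1 both averaged 67.6 TPM, and Fads2 averaged 28.4 ± 10.0 TPM. By mean Fads2 had rank 3 of the 10 in HRP2-KO and rank 8 in WT, with neighbours in both orders within the spread. Fasn, Elovl5, Srebf1 and Scd1 lay between 37.3 and 47.6 TPM in HRP2-KO and between 35.5 and 46.2 TPM in WT, too close to order. Acaca and Elovl6 were the lowest in both groups, Elovl6 at 8.05 ± 1.76 TPM in HRP2-KO and 5.86 ± 1.36 TPM in WT. Summed over the 10 genes the level was 881, 426 and 621 TPM in HRP2-KO replicates 6, 7 and 44, against 338, 412 and 513 TPM in WT replicates 10, 11 and 12.

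The balance within gene pairs was set apart from the level of the pathway by taking shares within each library, which do not depend on library scaling. Scd1 made up 14%, 15.5% and 14.9% of the summed TPM of Scd1 and Scd2 in HRP2-KO replicates 6, 7 and 44, against 37.4%, 31.1% and 27.1% in WT replicates 10, 11 and 12. The 3 HRP2-KO shares were close to each other although Scd2 differed 3.41-fold in CPM among those libraries, and all lay below every WT share. The mean share was 14.8% ± 0.737 in HRP2-KO and 31.9% ± 5.20 in WT (SD, n = 3 each), a difference of -17.1 points. An exact two-sided permutation test gave p = 0.1, the smallest that 3 against 3 allows, and 0.2 after Benjamini-Hochberg adjustment over the 4 pairs.

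Fads1 made up 50.3%, 59.1% and 48.5% of Fads1 and Fads2 in HRP2-KO libraries, against 73.6%, 73.3% and 65.9% in WT libraries. Again every HRP2-KO share was below every WT share, with replicate 7 the highest of the HRP2-KO libraries. The means were 52.6% ± 5.66 in HRP2-KO and 70.9% ± 4.38 in WT (SD, n = 3 each), with the same exact permutation p of 0.1 (adjusted 0.2). Elovl6 made up 15% ± 1.52 of Elovl5 and Elovl6 in HRP2-KO and 13.1% ± 2.99 in WT, and these shares overlapped (exact permutation p = 0.6). Acaca made up 94.0% to 97.5% of Acaca and Acacb in HRP2-KO and 94.5% to 96.4% in WT (exact permutation p = 1.0). Acacb encodes the mitochondrial carboxylase that restrains fatty acid oxidation, and was at 3.02 ± 0.817 CPM in HRP2-KO and 2.39 ± 0.732 CPM in WT (SD, n = 3 each).

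**Figure D3:**
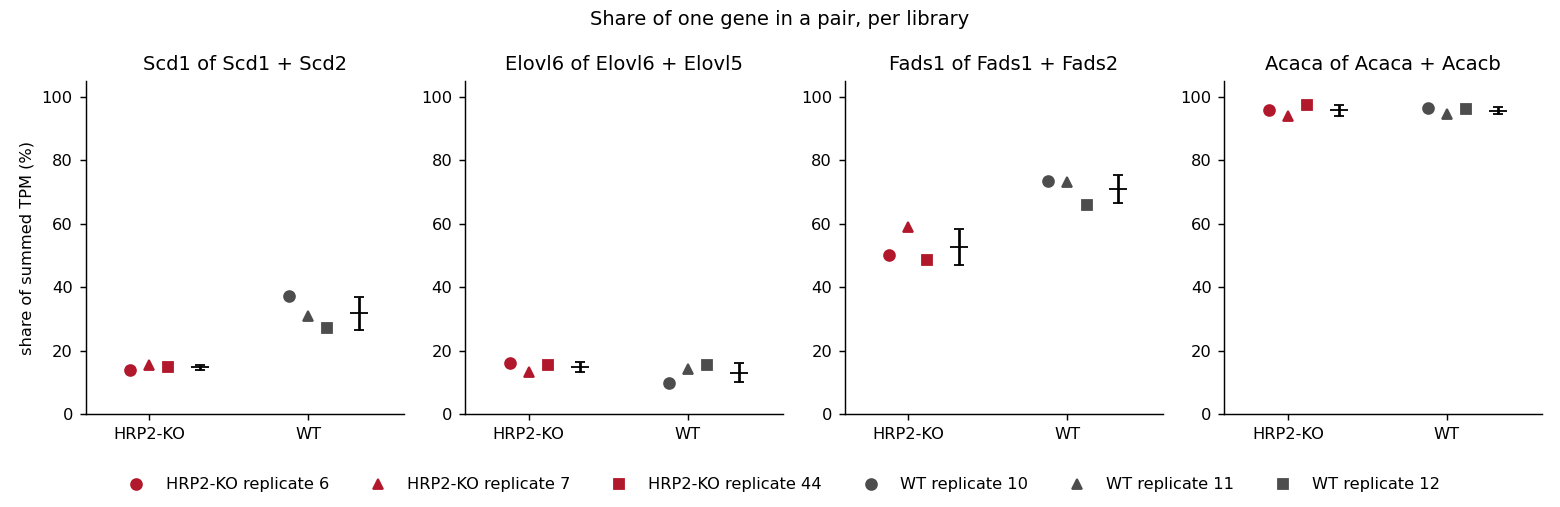
Share of the first gene in the summed TPM of a pair (vertical axis, percent) in each HRP2-KO (red) and WT (grey) library, with mean ± SD in black. The Scd1 share is 14% to 15.5% in HRP2-KO and 27.1% to 37.4% in WT, and the Fads1 share is 48.5% to 59.1% in HRP2-KO and 65.9% to 73.6% in WT.

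Across libraries, centred on each gene's own mean, the 10 genes averaged 0.57, -0.11 and 0.53 log2 units in HRP2-KO replicates 6, 7 and 44, against -0.55, -0.38 and -0.06 in WT replicates 10, 11 and 12. The 2 HRP2-KO libraries with the highest averages had the lowest macrophage sums, 1360 and 2720 CPM. The WT library with the lowest average, replicate 10, had the highest macrophage sum, 28600 CPM, and the lowest sum over 6 proliferation genes, 37.5 CPM. Proliferation genes summed to 564, 305 and 644 CPM in the HRP2-KO libraries (replicates 6, 7 and 44), against 37.5, 118 and 98.7 CPM in WT replicates 10, 11 and 12, and all 6 genes had every HRP2-KO value above every WT value, against 17.0% of tested genes. The part of macrophage content and of proliferation in the fatty acid genes was not tested. Of the 15 macrophage markers, Mrc1 had every HRP2-KO value below every WT value in CPM, against 14% of tested genes. On the TPM scale Cd68, C1qc and Mrc1 did, against 23.7%. None of the 15 was at 0 in any library.

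Of the 2 libraries highest for the enzymes, HRP2-KO replicate 6 had the lowest sum of fat-cell markers. HRP2-KO replicate 44 lay above WT replicate 12, in a sum that was mostly Fabp4. The 11 adipocyte markers summed to 106, 270 and 216 CPM in the HRP2-KO libraries (replicates 6, 7 and 44), against 417, 269 and 157 CPM in WT replicates 10, 11 and 12. Adipoq, which encodes adiponectin, was at 0.0976, 0 and 0.0496 CPM in HRP2-KO libraries, under the limit of 0.146 to 0.160 CPM that a count of 0 allows there (3 counts, counting error only). It was at 4.69, 18.9 and 1.55 CPM in WT libraries. Lep was at 0 in all libraries, and Cfd at 0 in HRP2-KO libraries and at 0.296, 9.88 and 0.188 CPM in WT libraries. Fabp4, a fatty acid carrier of fat cells and macrophages, went the other way at 39.3, 87.8 and 157 CPM in HRP2-KO libraries, against 18.6, 25.8 and 14.8 CPM in WT libraries. It made up 157 of the 216 CPM in HRP2-KO replicate 44, and Cebpa 245 of the 417 CPM in WT replicate 10. Plin4 was at 5.71, 0.802 and 1.54 CPM in HRP2-KO libraries, against 17.6, 20.9 and 7.91 CPM in WT libraries. Lpl, Pparg and Cebpa had fitted folds of 0.521, 0.693 and 0.366 with groups that overlapped in CPM. Plin1, Cidec and Retn were each at most 0.0535 CPM in HRP2-KO and, outside WT replicate 11, at most 0.247 CPM in WT. The 12 stromal markers summed to 29300, 26000 and 22800 CPM in HRP2-KO libraries, against 6060, 11100 and 8980 CPM in WT libraries. Most of that sum was collagen, with Col1a1 at 15700, 11900 and 12200 CPM in HRP2-KO libraries against 1580, 3290 and 1850 CPM in WT libraries. Col1a1 and Col1a2 of the 12 had every HRP2-KO value above every WT value, as did 17.0% of tested genes. The other stromal markers overlapped and were mixed in direction. Pdgfra, Thy1, Eng, Cxcl12 and Vcam1 had fitted folds of 0.287, 0.39, 0.349, 0.535 and 0.868. Col3a1, Nt5e, Lepr, Ly6a and Pdgfrb had fitted folds of 1.71, 1.42, 1.38, 1.21 and 1.12. The part of these cell-type differences in the enzyme levels was not tested. Lepr, a defining marker of marrow stroma in mice, was at 0.634 to 4.49 CPM in HRP2-KO and 1.04 to 3.21 CPM in WT.

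**Figure D4:**
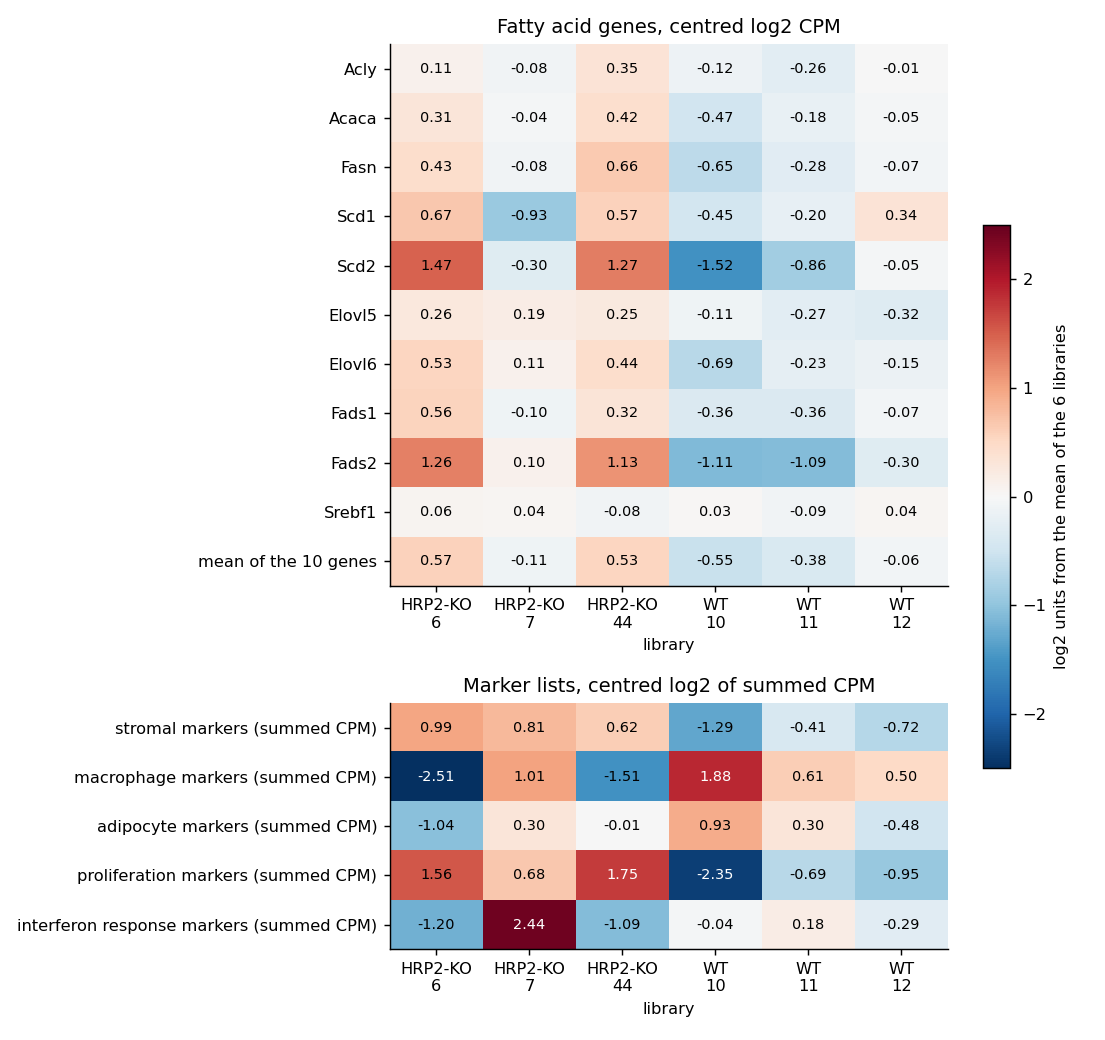
Upper panel: log2 CPM of each gene minus its mean over the 6 libraries, for HRP2-KO (left) and WT (right) libraries. Lower panel: the same for the log2 of summed CPM of 5 marker lists. HRP2-KO replicates 6 and 44 average 0.57 and 0.53 over the 10 genes and replicate 7 averages -0.11, while macrophage markers are at -2.51, -1.51 and 1.01 in those libraries.

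The wider pathway was mixed in direction. Of 46 further genes of fatty acid metabolism 41 were tested, 24 with a log2 fold change above 0 and 17 below, with a median of 0.16. None passed over all genes in edgeR, and 2 were higher (4.88%, against 12.7% of all tested genes) and 3 lower (7.32%, against 9.1%) at an unadjusted p under 0.05. DESeq2 called 2 of 44, Hacd1 and Fads3, both higher (4.55%, against 5.45%). Without HRP2-KO replicate 7 edgeR called 6 of 42 higher and 3 lower, against 12.1% and 12% of all genes. Among those called lower, Mlxipl had too few counts to be tested with all 6 libraries.

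By role, the 8 tested genes of the elongation cycle all had log2 fold changes above 0 with CPM scaling, against 51.0% of all tested genes. Their median was 0.37, although Elovl1, Hsd17b12, Hacd2 and Hacd3 had lower mean TPM in HRP2-KO than in WT. On the log2(TPM + 1) scale the median log2 fold change of all genes was -0.21, and that of Elovl1 was also -0.21. In Tecr and Elovl7 HRP2-KO replicate 7 lay below every WT library, as it did in 29.8% of all tested genes. It was at 151 CPM in Tecr against 165 to 184 CPM in WT, and at 0.963 CPM in Elovl7 against 1.84 to 3.37 CPM. Hacd1, a dehydratase of that cycle, was at 36.1, 25.9 and 47.5 CPM in the HRP2-KO libraries (replicates 6, 7 and 44), against 9.82, 13.5 and 10.8 CPM in WT replicates 10, 11 and 12. Its groups were well apart, a log2 fold change of 1.68 (standard error 0.28, edgeR adjusted p = 0.0966). Fads3, a neighbour of Fads1 and Fads2 that desaturates sphingoid bases, was at 330.0, 259 and 211 CPM in HRP2-KO libraries, against 135, 130 and 122 CPM in WT libraries. It also separated the groups, with a log2 fold change of 1.05 (edgeR adjusted p = 0.107). Hacd1 and Fads3 were the only 2 of the 41 genes with every HRP2-KO value above every WT value in CPM. That is 4.88%, against 17.0% of all tested genes. Elovl1, an elongase of very long chains, was at 112 ± 11.1 CPM in HRP2-KO and 109 ± 16 CPM in WT (SD, n = 3 each). Scd3 was at most 0.277 CPM in any library.

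In 8 of the 41 genes every HRP2-KO value lay below every WT value on the CPM scale, 19.5% against 14% of all tested genes. Cyb5a and Cyb5r3 encode the cytochrome b5 and the reductase that pass electrons to desaturases. Cyb5a averaged 145 ± 52.4 CPM in HRP2-KO and 226 ± 23.2 CPM in WT, and Cyb5r3 495 ± 55.1 CPM in HRP2-KO and 701 ± 145 CPM in WT (SD, n = 3 each). Idh1, the cytosolic isocitrate dehydrogenase that yields NADPH, averaged 101 ± 15 CPM in HRP2-KO and 151 ± 14.1 CPM in WT. Mlycd, malonyl-CoA decarboxylase, averaged 8.12 ± 1.67 CPM in HRP2-KO and 13.0 ± 3.07 CPM in WT. Adjusted p-values of these 4 genes in edgeR were 0.171 to 0.267. The 6 genes of mitochondrial fatty acid synthesis were mixed, with a median log2 fold change of 0.20. Mcat, Cbr4, Mecr and Ndufab1 had log2 fold changes of 0.46, 0.27, 0.25 and 0.16, while Oxsm and H2-Ke6, at -0.34 and -0.87, were below WT in every HRP2-KO library, Oxsm only narrowly. Adjusted p-values of these 6 genes in edgeR were 0.202 to 0.746.

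Among the regulators, Srebf2, which encodes SREBP-2, was at 152, 95.9 and 161 CPM in the HRP2-KO libraries (replicates 6, 7 and 44), against 98.6, 84.3 and 94.7 CPM in WT replicates 10, 11 and 12. Replicate 7 fell inside the WT range, as it did for Fasn and Scd2. The log2 fold change was 0.56 with all libraries (edgeR adjusted p = 0.239). Without replicate 7 it was 0.80 (edgeR adjusted p = 0.0266), in a fit that called 24.1% of all genes. With any other library left out the edgeR adjusted p for Srebf2 was 0.405 to 0.493. Insig1, which retains SREBP in the endoplasmic reticulum and is itself an SREBP target, averaged 50.4 ± 5.73 CPM in HRP2-KO and 40.2 ± 11.4 CPM in WT (SD, n = 3 each, edgeR adjusted p = 0.43). Nr1h2, the liver X receptor beta gene, was lower in every HRP2-KO library at 82.9 ± 4.92 CPM, against 103 ± 11.9 CPM in WT (edgeR adjusted p = 0.295). Of the 8 tested regulators 2 had log2 fold changes above 0 and 6 below, with a median of -0.14. Nr1h3, the liver X receptor alpha gene, was at 2.54, 8.77 and 2.43 CPM in HRP2-KO libraries, against 10.3, 8.22 and 11.6 CPM in WT libraries. It was called lower without replicate 7 (log2 fold change -1.97, edgeR adjusted p = 0.0171), where genotype and macrophage content cannot be told apart. With all libraries its log2 fold change was -1.13 (edgeR adjusted p = 0.281). Mlxipl, at most 0.554 CPM in any library, had too few counts to be tested with all 6 libraries. Without replicate 7 it passed the count filter through counts of 11 and 12 in WT replicates 10 and 11. Its call as lower in that fit (edgeR adjusted p = 0.0478) therefore carries no weight.

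**Figure D5:**
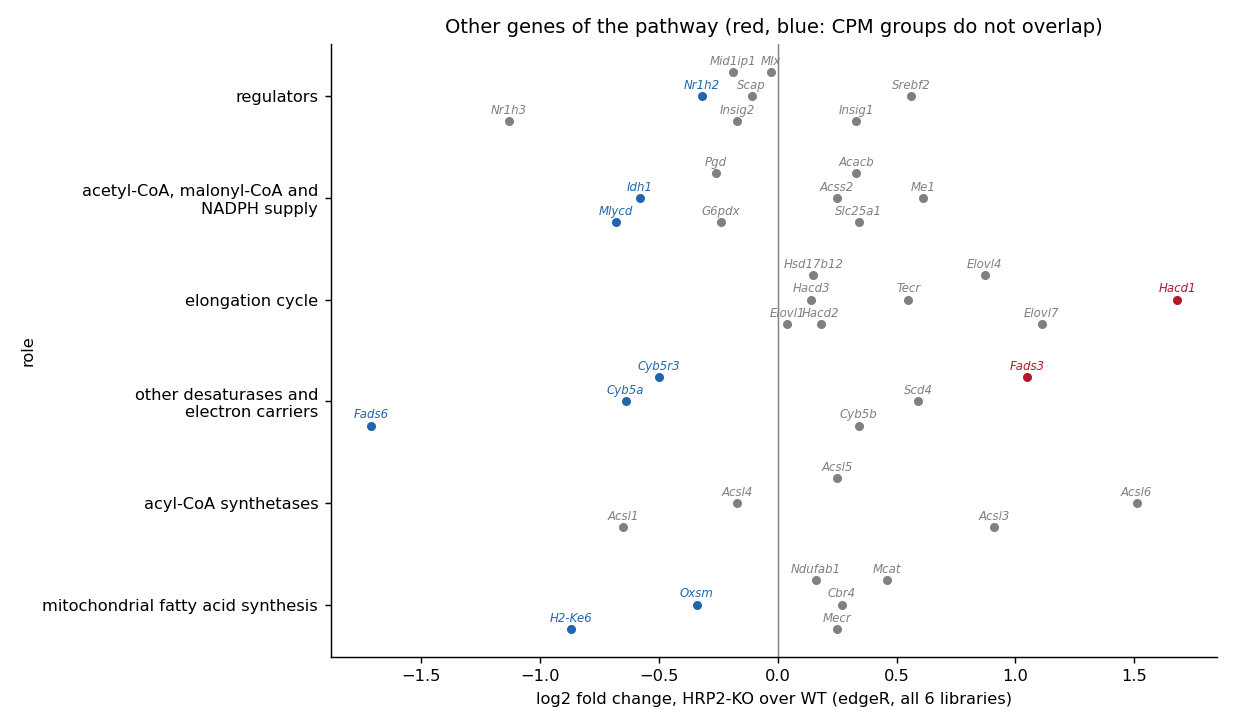
Fitted log2 fold change of HRP2-KO over WT (horizontal axis, all 6 libraries) for the 41 tested further genes of fatty acid metabolism, in rows by role, red where every HRP2-KO value is above every WT value and blue where every one is below. Hacd1 at 1.68 and Fads3 at 1.05 are the red points, 4.88% of the 41 genes against 17.0% of all tested genes. All 8 elongation-cycle genes lie right of 0, as do 51.0% of all tested genes. Of the 8, Elovl1, Hsd17b12, Hacd2 and Hacd3 have lower mean TPM in HRP2-KO than in WT. The median log2 fold change of all genes is -0.21 on the log2(TPM + 1) scale.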

How the data were processed

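RNA of 6 BMSC libraries, 3 HRP2-KO and 3 WT, was grouped by sample titles. Per the submitters' processing notes, BWA and the build GRCm38.p6 were used. For the gene counter, the annotation release and the strand setting, nothing is stated (not given in the sources used here), and overlapping genes and paralogs are uncertain for that reason. The authors deposited estimated counts per gene, 56.5% of them not whole numbers, without normalization. TPM from the authors adjusts for transcript length and a common total. FPKM, also deposited and named so per the file headers, served only to derive transcript lengths. A further 30 columns of averages and normalized counts were not used.

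Counts were rounded, filtered with filterByExpr (minimum count 10, minimum total 15), scaled by TMM and tested with edgeR 4.0.16 (R 4.3.3) by glmQLFTest on genotype, two-sided, with Benjamini-Hochberg adjustment over 13696 genes. The standard error is the log2 fold change divided by the square root of F. Folds are the fitted ones. The procedure was tested on simulated data with 50 genes changed at each size. It recovered 4% of 2-fold, 56% of 4-fold, 86% of 8-fold and 96% of 16-fold changes, so most 2-fold changes would be missed. Alternatives were other scalings and filters, DESeq2 1.42.0, limma 3.58.1 (voom, and log2(TPM + 1) or log2(TPM + 0.1) for genes of at least 1 TPM in 3 libraries) and leaving out each library. Pair shares used exact permutation tests (scipy 1.17.1). Promoters and positions are RefSeq's for GRCm38.p6; 50-base words come from GENCODE M21 transcripts, also GRCm38. Limits of detection cover counting error only.

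The members and lists were chosen with earlier results of these data known. Named genes are the 10 members, Hdgfl2, further pathway genes with non-overlapping groups and a larger group mean of 5 CPM or more, plus Srebf2, Insig1, Acacb, Elovl1 and Scd3. Marker genes, Nr1h3, Mlxipl, Elovl7, Tecr, Hsd17b12, Hacd2, Hacd3, Mcat, Cbr4, Mecr and Ndufab1 are named after their values were seen. The Hsd17b8 entry was matched as H2-Ke6, and the endothelial, erythroid and granulocyte markers summed to at most 19.6 CPM in any library. Figures were drawn with matplotlib 3.10.9.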

Additional observations from a re-analysis of the deposited data

How the results depend on the processing

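The median log2 fold change of the 10 fatty acid genes stayed above 0 under all 14 alternatives, at 0.47 to 0.73 with a library left out and 0.24 on the log2(TPM + 1) scale, where the median of all genes shifted by -0.22. How many of the 10 were called depended on the test and on HRP2-KO replicate 7: 0 with all libraries, 2 in DESeq2, and 0 to 5 with a library left out. Over all genes the count was 1 with all libraries, 1553 in DESeq2, 37 in limma voom, 42 and 27 in limma on log2(TPM + 1) and log2(TPM + 0.1), and 0 (without HRP2-KO replicate 44) to 3370 (without HRP2-KO replicate 7) with a library left out. In the wider list 2 were called by DESeq2 and 0 to 9 with a library left out. The median of all genes was -0.21 and -0.24 on the 2 TPM scales, and that of the wider list -0.11 on both and -0.07 (without HRP2-KO replicate 44) to 0.26 with a library left out.

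Reversed signs were those of Scd1 (-0.04 and -0.05) and Srebf1 (-0.23 and -0.24) on the 2 TPM scales, Srebf1 without WT replicate 11 (-0.03, within a range of -0.03 to 0.04 with a library left out), and Elovl1 on both TPM scales (-0.21 and -0.22) and without WT replicate 12 (-0.04, range -0.04 to 0.16). The median of all genes was -0.21 on the log2(TPM + 1) scale. Less that median Scd1 was at 0.17 and Srebf1 at -0.02, and Elovl1 equalled it. The cause of the reversed signs was not tested. The Scd1 share differed by -19.5 to -14.3 points and the Fads1 share by -21.6 to -16.3 points with a library left out. The Acaca share differed by 0.136 points with all libraries and by -0.707 to 1.04 points with a library left out. No paired analysis was possible because the replicate numbers of the HRP2-KO and WT samples do not overlap. With 3 libraries a group, a missed threshold does not show that a gene was unchanged.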

Other observations

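Over the 6 libraries Pearson's r of log2 CPM between enzyme genes ran from 0.16 between Scd1 and Elovl5 to 1.0 between Acaca and Fasn. It was 0.97 between Scd2 and Fads2 and 0.61 between Scd1 and Fads2, while Srebf1 had r between -0.19 and 0.16 with the other 9 genes. These are descriptions without a test, and the libraries share the genotype difference and the same macrophage and proliferation differences. The genes outside the set whose log2 CPM was most like the mean profile of the 10 genes were Zfp947, Prmt3, Tusc3, Kmt5a and Gfod1, with r of 0.9989 to 0.9908. Prmt3 is a protein arginine methyltransferase, Kmt5a a histone H4 lysine methyltransferase and Tusc3 a subunit of the oligosaccharyltransferase. With 6 libraries 274 of the other tested genes had r above 0.95. For Srebf1 alone the most alike were LOC115488671, H3c11, Map7d3, Ccnj and Ccdc170, each at a mean of at most 3.28 CPM.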
